A study of Mus musculus with 28 samples.

Results

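*Lhx3*, *Myod1*, *Mesp1*, *Hmx2* and *Hes2* are 5 genes for lineage transcription factors, out of 44674 genes counted in the bulk ovary libraries. They were picked by name as lineage factors nearly absent from non-irradiated ovaries, with their response to ionizing radiation (IR) in wild-type bulk ovaries and in oocytes known. Their levels in irradiated and non-irradiated wild-type ovaries are therefore a description and carry no test. Ovaries came from juvenile females about a week old, either wild-type C57BL/6J or *Chek2*-/-, a whole-body knockout carrying the Chek2tm1b(EUCOMM)Hmgu allele. Females received 0.5 Gy of gamma rays from Cs-137 or sham treatment, and ovaries were taken 6 h later. Bulk RNA sequencing covered 4 groups of 6 libraries, 24 in all, from paired ovaries. Single-cell RNA sequencing covered 1 library per condition, 4 in all, each from pooled ovaries of several females, so no difference between single-cell libraries has a replicate check.

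In other tissues these factors set cell identity. MYOD1 is a basic helix-loop-helix (bHLH) activator that commits cells to skeletal muscle, and MESP1 is a bHLH factor of early mesoderm and heart progenitors. LHX3 is a LIM-homeodomain factor needed for the pituitary and for motor neurons. HMX2 is a homeodomain factor of the inner ear and hypothalamus, and HES2 is a bHLH repressor of the HES family, whose best known members act downstream of Notch. CHEK2 is a checkpoint kinase activated by DNA double-strand breaks, and in oocytes it acts through p53 and TAp63.

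The 5 genes lie on 3 chromosomes (build GRCm38, GENCODE annotation). *Lhx3* (ENSMUSG00000026934) spans chr2:26200212-26208289 on the minus strand, and *Hes2* (ENSMUSG00000028940) spans chr4:152158867-152162469 on the plus strand. On chromosome 7 are *Myod1* (ENSMUSG00000009471, chr7:46376474-46379099, plus), *Mesp1* (ENSMUSG00000030544, chr7:79792241-79793788, minus) and *Hmx2* (ENSMUSG00000050100, chr7:131548773-131558014, plus). RefSeq promoter windows of 300 bases, from 250 before to 50 after a start, were at hand for 3 of the 5 genes. They are shown because these genes rose together from near 0. Capitals mark matches to the p53/p63 half-site (a consensus given here by its name), and the windows read along the gene's strand.
Lhx3, chr2:26206526-26206825, minus strand: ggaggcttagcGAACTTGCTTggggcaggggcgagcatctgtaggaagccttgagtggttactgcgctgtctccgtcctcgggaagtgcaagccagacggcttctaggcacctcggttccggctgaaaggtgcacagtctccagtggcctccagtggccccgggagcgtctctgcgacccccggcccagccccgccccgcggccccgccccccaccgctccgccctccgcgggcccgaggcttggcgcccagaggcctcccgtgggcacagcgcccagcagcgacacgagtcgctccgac
Hmx2, chr7:131548507-131548806, plus strand: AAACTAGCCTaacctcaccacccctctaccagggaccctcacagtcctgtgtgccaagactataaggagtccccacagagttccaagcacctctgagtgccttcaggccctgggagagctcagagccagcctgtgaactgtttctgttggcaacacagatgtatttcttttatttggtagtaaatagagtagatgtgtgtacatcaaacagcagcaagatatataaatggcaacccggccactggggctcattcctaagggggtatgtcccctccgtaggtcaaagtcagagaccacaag
Mesp1, chr7:79793541-79793840, minus strand: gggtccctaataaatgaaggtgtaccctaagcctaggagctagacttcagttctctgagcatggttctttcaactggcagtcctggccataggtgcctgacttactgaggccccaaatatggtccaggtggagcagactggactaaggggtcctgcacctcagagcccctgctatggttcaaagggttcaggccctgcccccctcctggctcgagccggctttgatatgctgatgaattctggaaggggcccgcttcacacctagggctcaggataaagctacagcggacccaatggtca

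The half-site was found in 1 of 2 *Lhx3* windows and 1 of 2 *Hmx2* windows, the ones shown, and not in the *Mesp1* window. Of all 32851 promoter windows of this length 8.36% held it. The E-box CANNTG, bound by bHLH factors, was present in the shown windows of *Lhx3* and *Hmx2* and in 2 copies in that of *Mesp1*. The other *Lhx3* window and the other *Hmx2* window had none, and 72.3% of all windows held it. The N-box CACNAG was held by both *Lhx3* windows and 1 *Hmx2* window, against 42.5% of all windows, and CATG was held only by the *Mesp1* window among the 5, against 61.1%. All motifs were searched on both strands, and CATG can lie inside a half-site. A match describes the letters and not a bound site.

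Bulk libraries held 17824920 to 32605519 counts, so that 3 counts in 1 library equalled 0.0931 to 0.168 CPM (counts per 1000000 counts, with TMM scaling). *Chek2* itself was at 22.4 ± 1.66 CPM in non-irradiated wild-type and 3.75 ± 0.545 in non-irradiated *Chek2*-/- ovaries (SD, n = 6). The summed level of 9 oocyte markers was 1860 to 2380 CPM in the 12 wild-type libraries. It was 1020 and 1160 CPM in 2 *Chek2*-/- libraries, both numbered 6, against at least 1810 in the other 10, so results on *Chek2*-/- ovaries were also computed without them. In single cells, 9 of 9 oocyte markers named 1 cluster of 582 oocyte-like cells. Their median depth in UMIs (counted transcript molecules) was 181498 in non-irradiated and 14183 in irradiated wild type, and 159208 and 120517.5 in *Chek2*-/-.

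*Lhx3* had no count in non-irradiated wild-type ovaries and was found in every irradiated one. Its counts were 0 in all 6 non-irradiated libraries and 34, 40, 30, 46, 25 and 45 in irradiated replicates 1 to 6. On the CPM scale the irradiated level was 1.64 ± 0.587 (SD, n = 6), and against a floor of 3 counts in the non-irradiated group *Lhx3* was at least 78-fold higher. *Hmx2* had the same shape at a lower level. No count fell in the non-irradiated libraries, and irradiated replicates 1 to 6 had 10, 10, 12, 25, 15 and 21 counts. The level was 0.688 ± 0.363 CPM, at least 33-fold above the floor, and replicate 4 at 1.4 CPM stood above the others, which lay between 0.48 and 0.74.

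The 3 bHLH genes had a few counts without irradiation. *Myod1* had 0, 6, 1, 2, 2 and 0 counts in non-irradiated and 35, 36, 54, 55, 38 and 57 in irradiated wild-type replicates 1 to 6. Its irradiated level, 2.01 ± 0.593 CPM, was 26.6 times the non-irradiated one (counting interval 14.6 to 53.9). For *Hes2* the counts were 0, 2, 1, 0, 2 and 1 without and 16, 38, 38, 43, 44 and 72 with irradiation. This made 1.78 ± 0.643 CPM and a ratio of 44.5 (20.2 to 122). *Mesp1* had the fewest counts of the 3, 1 in each of 2 non-irradiated libraries and 4, 18, 16, 17, 11 and 24 in irradiated replicates 1 to 6. Its level was 0.649 ± 0.3 CPM and the ratio 47.9 (12.9 to 401). Counting intervals leave out the spread between ovaries.

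For all 5 genes every irradiated wild-type library lay above every non-irradiated one. Among the 26790 genes tested 449 (1.68%) did so, 230 (0.859%) were called higher and 58 (0.216%) lower, at an adjusted p of at most 0.05 and 2-fold by the edgeR quasi-likelihood test. Since the genes were chosen on this contrast, nothing is read from the comparison with these shares.

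**Figure D1:**
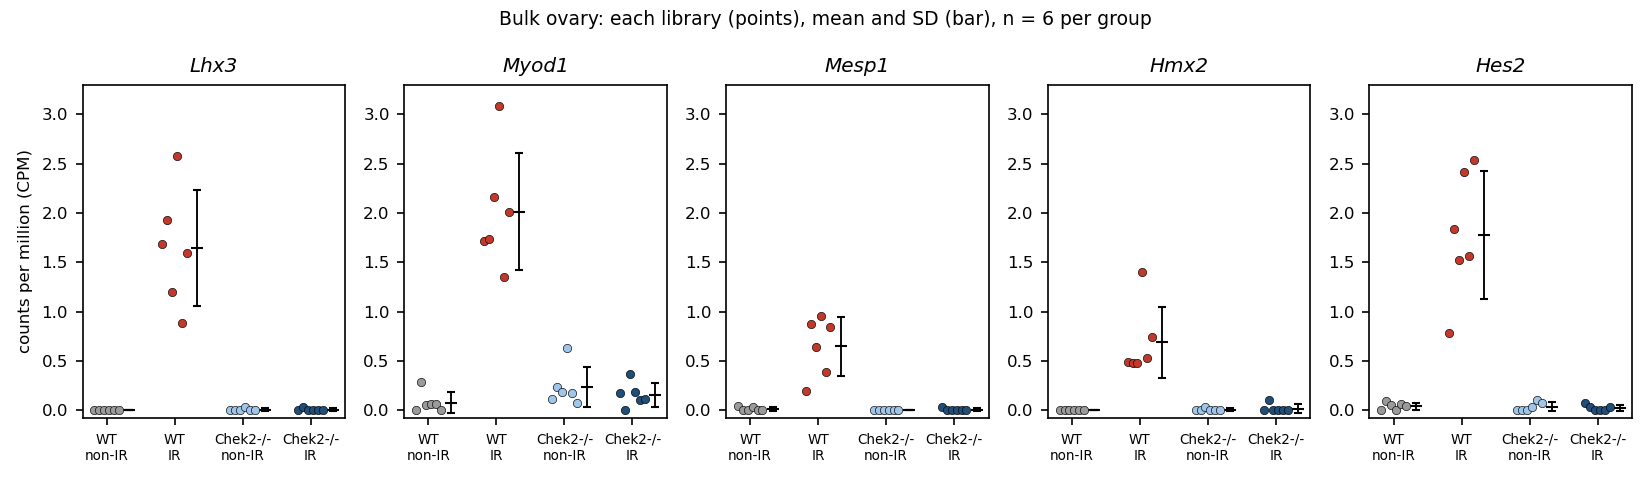
Each point is 1 bulk library, the y axis gives CPM and the bar beside each group shows the mean and SD of 6 libraries. For each gene the 6 irradiated wild-type libraries lie above all other wild-type libraries, and both *Chek2*-/- groups stay below 0.65 CPM.

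The response was not detected in *Chek2*-/- ovaries. *Lhx3* had 1 count over the 6 non-irradiated and 1 over the 6 irradiated *Chek2*-/- libraries. *Mesp1* had 0 and 1, and *Hmx2* had 1 and 3, all 3 in irradiated replicate 2. Totals for *Hes2* were 6 without and 4 with irradiation. *Myod1* was the only one of the 5 with counts in most *Chek2*-/- libraries, 3, 6, 5, 17, 5 and 2 in non-irradiated and 5, 0, 10, 5, 3 and 3 in irradiated replicates 1 to 6. Its irradiated level was 0.158 ± 0.124 CPM against 0.236 ± 0.2 without irradiation, a log2 fold change of -0.57 (SE 0.58).

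Neither *Myod1* nor *Hes2* was called in *Chek2*-/- ovaries, where 1 of 26790 genes (0.00373%) was. For neither did every irradiated library lie above every non-irradiated one, which 0.0896% of genes did. By the edgeR quasi-likelihood test the unadjusted p was 0.338 for *Myod1* and 0.538 for *Hes2*, with an adjusted p of 1 for each. No alternative gave either gene an unadjusted p under 0.05, DESeq2, limma-voom and the fit without both oocyte-poor libraries included. *Lhx3*, *Mesp1* and *Hmx2* entered the fit only through their irradiated wild-type counts. They had at most 3 counts in each *Chek2*-/- group, too few for a call, so no p is given for them. The irradiated to non-irradiated ratio was 0.663 for *Myod1* (counting interval 0.386 to 1.12) and 0.646 for *Hes2* (0.134 to 2.72). Neither kept its direction when each library was left out in turn. Of the other 3 genes both groups were at or under 3 counts, so no ratio is given.

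Levels within irradiated wild-type ovaries can be set against each other only per length of transcript. Per kilobase of the longest annotated transcript, *Myod1* was highest at 1.08 ± 0.319 CPM, followed by *Lhx3* (0.739 ± 0.264), *Hes2* (0.704 ± 0.255), *Mesp1* (0.509 ± 0.235) and *Hmx2* (0.222 ± 0.117). Neighbours in this order overlapped, while the lowest *Myod1* library (0.726) was above the highest *Hmx2* library (0.451). Between libraries the coefficient of variation was 29.5% for *Myod1* and 52.7% for *Hmx2*. Replicate 4 was the highest of the 6 in CPM for *Lhx3*, *Myod1*, *Mesp1* and *Hmx2*, and replicate 6 for *Hes2*. Over the 10 pairs of genes and 6 irradiated libraries, *Mesp1* and *Hes2* had the strongest relation, with Pearson's r = 0.92 (exact permutation p = 0.0111, adjusted 0.111) and Spearman's rho = 0.77 (exact permutation p = 0.103, adjusted 0.438). Without the 2 libraries farthest from the median of *Mesp1* r was 0.77, and no pair passed the adjustment.

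In bulk ovary fewer cells of a type and less RNA per cell cannot be told apart. The summed level of 3 primordial-type oocyte markers was 90.1 to 141 CPM in non-irradiated and 57.5 to 96.1 in irradiated wild-type libraries, with none of the 3 at 0. The same sum was 84.6 to 164 and 113 to 156 CPM in *Chek2*-/- libraries. The 8 growing-type markers summed to 3900 to 5400 CPM without and 3950 to 4910 with irradiation in wild type. The 8 skeletal muscle markers, of a tissue that expresses *Myod1*, summed to 22.5 to 27.7 CPM without and 20.4 to 25.8 with irradiation, none at 0. In single cells of the non-irradiated wild-type library, oocyte-like cells held 871 of 1621 UMIs of these 8 markers. Their sum is therefore no measure of muscle alone. The part of muscle and of oocyte numbers in the result was not tested.

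Single cells placed the 5 genes in oocytes of the irradiated wild-type library. The 171 oocyte-like cells there held 366 of 383 *Lhx3* UMIs in all cells used, or 95.6% (exact binomial interval 93.0 to 97.4%). For *Hmx2* the share was 96.2%, for *Hes2* 93.2%, for *Myod1* 92.9% and for *Mesp1* 80.8% (74.9 to 85.9%). These cells were 1.75% of the 9779 cells of the library and held 13378049 UMIs, against 164530627 in all other cells used. Of each gene oocyte-like cells held, in CPM (here UMIs per 1000000 UMIs), 27.4 of *Lhx3* (24.6 to 30.3), 26.3 of *Myod1* (23.6 to 29.2), 12.9 of *Mesp1* (11.1 to 15.0), 11.2 of *Hmx2* (9.49 to 13.2) and 4.11 of *Hes2* (3.1 to 5.35). Intervals and limits on single cells cover counting error only.

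The other libraries had few UMIs of any of the 5 genes in oocyte-like cells. In the 196 non-irradiated wild-type cells *Lhx3* had 5 UMIs, *Mesp1* 9, *Hmx2* 4, and *Myod1* and *Hes2* had 0. Irradiated against non-irradiated, the ratio was 158 for *Lhx3* (67.2 to 490), 41.6 for *Mesp1* (21.4 to 92.4) and 81.1 for *Hmx2* (31.0 to 301). *Myod1* was at least 254-fold higher and *Hes2* at least 39.6-fold, taking 3 UMIs per library as the floor. Of the 15276 genes with at least 20 UMIs in these cells 9.1% were 2-fold higher and 1.57% were 10-fold higher, a comparison from which nothing is read for genes chosen on it.

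In *Chek2*-/- oocyte-like cells, 75 without and 140 with irradiation, *Myod1* and *Hes2* had no UMI. *Lhx3* had 0 and 3, *Mesp1* 4 and 11 and *Hmx2* 7 and 1 UMIs. The *Mesp1* ratio was 1.83 (0.542 to 7.87), where 3.19% of 14211 genes were at least 2-fold higher. That of *Hmx2*, 0.0949 (0.00211 to 0.739), was below 1, on 7 non-irradiated UMIs in 4 cells, of which 1 cell held 4.

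**Figure D2:**
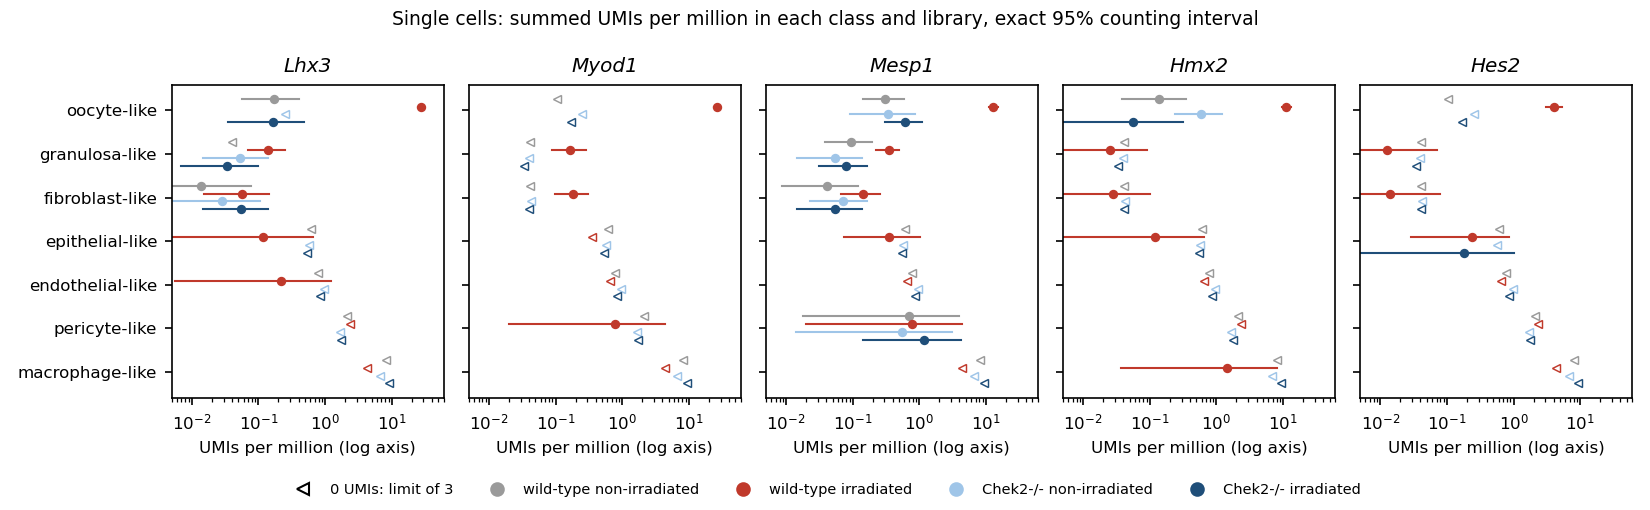
Rows are cell classes, the log x axis gives CPM of UMIs summed over each class, colours are the 4 libraries, lines are exact 95% counting intervals and open triangles mark the limit of 3 UMIs where none was found. The irradiated wild-type oocyte-like value of each gene, from 4.11 to 27.4, lies to the right of its other classes with UMIs.

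Outside oocytes the levels were low. In this library the fibroblast-like class also held 297 cells of a cluster led by *Actg2*, *Cnn1* and *Acta2* and 45 of one led by *Hbb-bs* and *Hba-a2*. The granulosa-like class held 11 cells of a cluster led by *Cma1* and *Tpsb2*, so both names are broad. In all irradiated wild-type fibroblast-like cells, which have a median of 11793 UMIs, 0.0766% of 5223 cells had a *Lhx3* UMI and 0.249% a *Myod1* UMI. Granulosa-like cells, with a median of 19298 UMIs, had a share of 0.307% for *Lhx3* and 0.363% for *Myod1*. In oocyte-like cells, with a median of 14183 UMIs, these shares were 38.6% and 39.8%. No cell outside oocytes held more than 1 UMI of *Lhx3*, *Myod1*, *Hmx2* or *Hes2* in that library. For *Mesp1* there were 27 UMIs in 19 granulosa-like cells, 1 of which held 6, and a level of 0.346 CPM (0.228 to 0.503) against 0.0951 (0.0382 to 0.196) without irradiation. All cells outside oocytes together had 41 *Mesp1* UMIs with and 11 without irradiation, a ratio of 3.55 (1.79 to 7.67). *Lhx3* had 17 and 1 there, a ratio of 16.2 (2.54 to 678), *Myod1* 27 and 0, *Hmx2* 6 and 0 and *Hes2* 4 and 0. Free RNA from oocytes as a source of these UMIs was not tested.

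The share of irradiated wild-type oocyte-like cells with a UMI rose with depth. Of the 171 cells 70 had under 5000 UMIs, against 17 of 196 in the non-irradiated library. Among the 51 irradiated cells with 50000 UMIs or more, *Lhx3* and *Myod1* were each found in 43 (84.3%, 71.4 to 93.0%), *Hmx2* in 42 (82.4%), *Mesp1* in 38 (74.5%) and *Hes2* in 20 (39.2%). At least 1 of the 5 genes was found in 46 of the 51, or 90.2% (78.6 to 96.7%). At this depth the share was 9 of 131 (6.87%) in non-irradiated wild-type, 6 of 62 (9.68%) in non-irradiated *Chek2*-/- and 13 of 91 (14.3%) in irradiated *Chek2*-/- cells. The level of *Lhx3* in CPM was 33.6 under 5000 UMIs, 26.5 from 5000 to 50000 and 27.3 above, and that of *Myod1* was 33.6, 20.5 and 26.8. *Mesp1* had 5.6 CPM, from 1 cell with a UMI, then 14.6 and 12.9. *Hmx2* and *Hes2* had no UMI in the shallowest cells, and from the middle to the deepest cells *Hmx2* went from 5.99 to 11.9 CPM and *Hes2* from 11.1 to 3.49, with UMIs in 6 and 10 of the 50 middle cells. Thinned to 5000 UMIs each, which left out 70 cells, 13.9% of the remaining 101 irradiated wild-type cells had a *Lhx3* UMI (7.79 to 22.2%). None of the 179 non-irradiated wild-type cells of that depth had one (0 to 2.04%). Without thinning the shares were 38.6% and 1.02%.

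**Figure D3:**
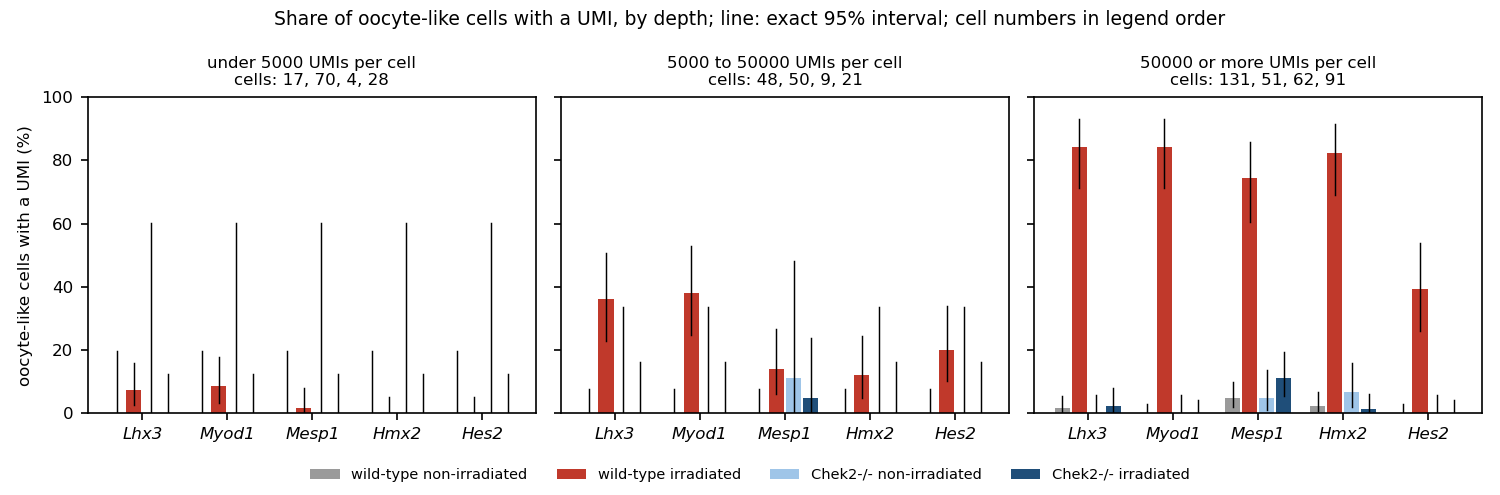
Panels split oocyte-like cells by UMIs per cell, the y axis gives the share of cells with a UMI in percent, colours are the 4 libraries and lines are exact 95% binomial intervals. Shares in irradiated wild-type cells climb with depth to between 39.2% and 84.3%, while the other libraries reach at most 11.1%.

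The same cells carried several of the genes. In the irradiated wild-type library 84 of 171 oocyte-like cells had none of the 5, 24 had 1, 11 had 2, 15 had 3, 18 had 4 and 19 had all 5. In the other 3 libraries 1 oocyte-like cell had 3, 1 had 2 and the rest had 1 or none. Cells with all 5 had a median of 187270 UMIs and cells with none 2973.5. Among the 51 deep cells all 20 with *Hes2* also had *Lhx3*, *Myod1* and *Hmx2*, and 41 of 42 with *Hmx2* had *Lhx3*. Spearman's rho between levels in CPM over these 51 cells was 0.29 to 0.59 for the 10 pairs. The cells share 1 library, and the values are a description. The 10 highest cells held 40.7% of the *Lhx3* UMIs, found in 66 cells, and 61.8% of the *Hes2* UMIs, found in 30. The cell with the most *Lhx3* had 25 UMIs of it and 9 of *Myod1*, and another with the most *Myod1* had 24 of it and 11 of *Lhx3*.

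**Figure D4:**
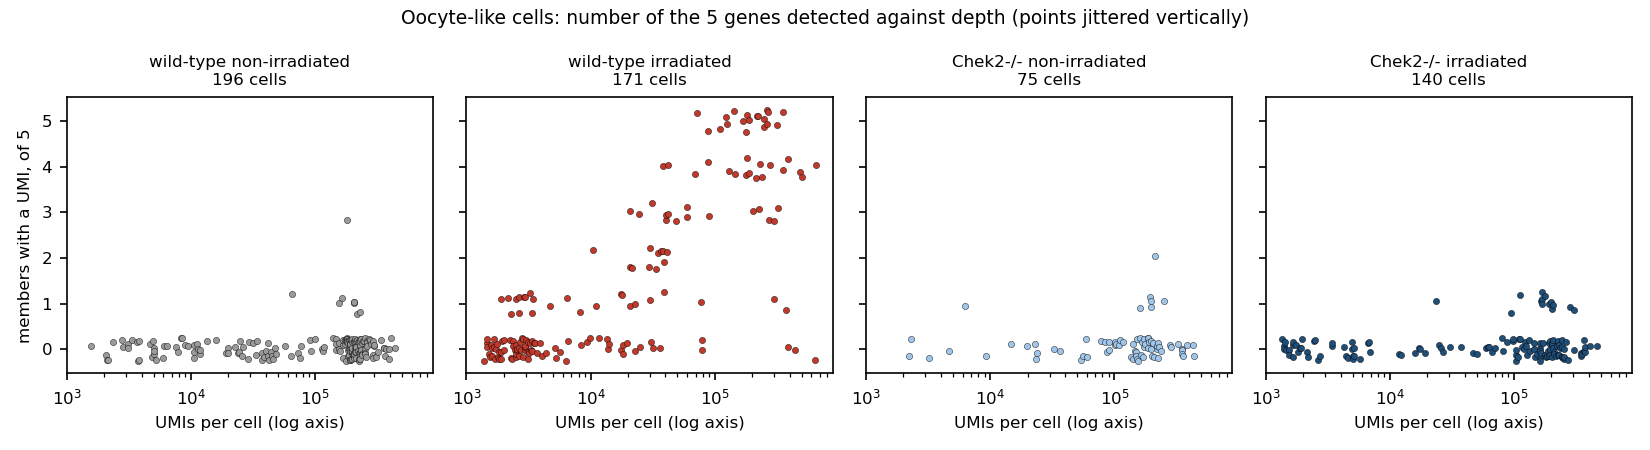
Each point is 1 oocyte-like cell, the log x axis gives its UMIs and the y axis how many of the 5 genes had a UMI, with vertical jitter. Irradiated wild-type cells reach 5 genes as depth grows, and cells of the other libraries stay at 0 or 1 apart from 1 with 3 and 1 with 2.

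Irradiated wild-type oocyte-like cells differed among themselves. Of 8 subclusters, 2 passed most of the 8 growing-type markers, one with 7 and no irradiated wild-type cell (17 non-irradiated ones), the other with 5 and 17 irradiated wild-type cells of 2451014 UMIs in all. These 17 cells had 2 UMIs of *Myod1* (0.816 CPM, 0.0988 to 2.95) and none of the other 4, which allows up to 1.22 CPM. A subcluster of 60 cells, all from this library and led by *Cbr2*, *Fermt1* and *Slc6a8*, had 36.4 CPM of *Lhx3* (32.6 to 40.5) and 35.1 of *Myod1* (31.4 to 39.1). It passed 1 of the 8 growing-type markers, and its *Gdf9* level was 727.2 CPM, against 1966.6 and 5133.1 in the growing-type subclusters and 216.3 to 399.3 in the other 5. *Lhx3* and *Myod1* were also found in 3 other subclusters. In the order below these were led by *Cxcl10*, *Sdc4* and *Gstm2*, by *Col1a1*, *Col3a1* and *Igfbp4*, and by *Mars*, *Cutc* and *Osgin1*. *Col1a1* was among the fibroblast markers, and the part of RNA from other cells was not tested. *Lhx3* was at 14.9 CPM (8.84 to 23.6) in 25 cells of one subcluster, 25.5 (10.3 to 52.6) in 40 of another and 23.3 (6.34 to 59.6) in 25 of yet another, and *Myod1* at 7.46, 36.5 and 34.9. *Mesp1* had 10, 3 and 1 UMIs in these cells, *Hmx2* 7, 2 and 0 and *Hes2* 7, 3 and 1, so in the groups of 40 cells and of 25 cells named last none exceeded 3 UMIs. Of the remaining subclusters one had 4 such cells with 6902 UMIs and none of the genes. The other had 55 non-irradiated wild-type cells and no irradiated one. The 5 deep cells without any of the genes all lay in the growing-type subcluster with 5 markers, at 78696 to 640279 UMIs. Subclusters were made from the genes of the same cells, without these 5 genes and without the p53 list, so the contrast is no test. No correction between libraries was made. In a subcluster from 1 library, irradiation and differences between libraries or in depth cannot be told apart.

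One non-irradiated wild-type oocyte-like cell, of 180101 UMIs, held 2 *Lhx3*, 1 *Mesp1* and 2 *Hmx2* UMIs. Its *Mdm2* level, a p53 target, was 333 CPM, against a median of 69.6 in its library. The other such cell, non-irradiated *Chek2*-/- with 211415 UMIs, held 1 *Mesp1* and 1 *Hmx2* UMI, and its *Mdm2* level was 47.3 CPM against a median of 72.3. No barcode was shared between oocyte-like cells of any 2 libraries. Over all deposited barcodes 30 to 73 were shared between library pairs. Of the barcodes with one of the 5 genes outside the irradiated wild-type library 1, with *Mesp1* in the irradiated *Chek2*-/- library, was also a barcode of the irradiated wild-type one, where it had no *Mesp1*.

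Known damage targets were measured beside them. Of 19 genes of the p53 family and its direct targets, 11 rose in wild-type bulk ovaries, where 0.859% of all genes tested were called higher. None passed in *Chek2*-/-, where 0.00373% of all genes were called. *Mdm2*, the p53 inhibitor, rose from 80.8 ± 2.87 to 204 ± 18.5 CPM (log2 fold change 1.33, SE 0.05, adjusted p = 1.19e-14 by edgeR). In oocyte-like cells *Mdm2* was 10.5 times higher in irradiated wild type (10 to 11) and in other cells 1.53 times (1.48 to 1.58). *Cdkn1a*, the cell cycle inhibitor p21, was 4.78 times higher in oocyte-like and 12.7 times higher in other cells of wild type. In *Chek2*-/- cells the *Cdkn1a* ratio was smaller but above 1, at 1.18 (1.06 to 1.31) in oocyte-like and 1.9 (1.73 to 2.07) in other cells. For *Mdm2* these ratios were 1.08 (0.991 to 1.17) and 1.04 (1.0 to 1.08). Bulk *Chek2*-/- ovaries had 38.3 ± 4.14 CPM of *Cdkn1a* without and 47.5 ± 7.81 with irradiation, which was not called. Irradiated wild-type oocyte-like cells with all 5 lineage genes had 1040 CPM of *Mdm2* and those with none 458. Depth differed between them, and so did *Gdf9*, a growing-type marker, at 370 CPM with all 5 and 4500 with none. The part of oocyte type and depth in the *Mdm2* values was not tested.

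Of the relatives tested, 11 LIM-homeobox, 1 HMX, 2 myogenic, 1 MESP and 10 HES and HEY genes, 2 were called in wild-type ovaries, where 1.08% of all genes were, and 1 of these calls depended on the fit. *Hmx1*, the only one of 2 HMX relatives with enough counts, rose from 0.144 ± 0.0885 to 1.38 ± 0.332 CPM (log2 fold change 3.2, SE 0.41, adjusted p = 1.08e-05 by edgeR), all 6 irradiated libraries being above all 6 non-irradiated ones. Its irradiation effect differed between genotypes by 3.11 on the log2 scale (interaction, adjusted p = 0.0105 by edgeR), and *Chek2*-/- ovaries had 0.119 and 0.126 CPM. In single cells *Hmx1* had 174 UMIs in irradiated and 19 in non-irradiated wild-type oocyte-like cells, a ratio of 19.8 (12.3 to 33.7). *Hmx3* had no count in any wild-type library.

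Of 11 other LIM-homeobox genes 1 rose, *Lhx5*, a factor of the forebrain, from 0.15 ± 0.0492 to 0.387 ± 0.096 CPM (adjusted p = 0.0429 by edgeR). That call was lost in DESeq2 (adjusted p = 0.0659), without the low-count filter (0.0573), with the replicate block (0.067), without any 1 wild-type library other than the replicates numbered 5, and without non-irradiated *Chek2*-/- replicate 3, with adjusted p up to 0.111. *Lhx8*, an oocyte factor, fell by 0.46 on the log2 scale (adjusted p = 0.027 by edgeR), below the 2-fold limit, and its share of UMIs within oocyte-like cells had a ratio of 0.989 (0.948 to 1.03). *Lhx4*, not called in bulk, had 12 UMIs in irradiated and 2 in non-irradiated wild-type oocyte-like cells (ratio 13.0, 2.89 to 119). Of the 7 LIM-homeobox genes with at least 20 UMIs in these cells 1 was at least 2-fold higher and none lower. *Mesp2*, the neighbour of *Mesp1* 16.9 kb away, was at 8.19 ± 1 and 12.1 ± 0.938 CPM (log2 fold change 0.57, SE 0.25, adjusted p = 0.381 by edgeR), and in oocyte-like cells it had a ratio of 2.78 (2.39 to 3.24). Of the 3 other myogenic factors *Myf5* had 21 and 15 counts and *Myf6* 11 and 5 in the non-irradiated and irradiated groups, and *Myog*, which acts downstream of MYOD1, had 0 in both. None of 10 tested HES and HEY genes passed, with log2 fold changes from -0.26 for *Bhlhe41* to 0.69 for *Hes3*. *Hes1*, the best known Notch target among them, was at 55.8 and 55.3 CPM. In oocyte-like cells 5 of the 8 HES and HEY genes with at least 20 UMIs were at least 2-fold lower in irradiated wild type and none was higher (median ratio 0.438), where 6.39% of all genes were at least 2-fold lower. *Hes1* had a ratio of 0.358 (0.32 to 0.398), *Hey2* of 0.245 (0.178 to 0.329) and *Heyl* of 0.283 (0.223 to 0.355). *Foxl2*, a granulosa cell factor, was at 98.6 and 24.1 CPM in the same cells (0.244, 0.217 to 0.274), and its part in these values was not tested.

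Genes known to act downstream of the factors gave no call, which is near the 1.08% called over all genes. Calls, at an adjusted p of at most 0.05 and 2-fold, were 0 of 28 skeletal muscle genes downstream of MyoD (median log2 fold change -0.1), 0 of 19 mesoderm and cardiac genes downstream of MESP1 (0.03), 0 of 13 pituitary genes downstream of LHX3 (-0.13), 0 of 13 inner ear and hypothalamic genes near HMX factors (0.16) and 0 of 22 Notch pathway genes (0.04). Dimer partners and inhibitors of bHLH factors gave 0 of 14, LIM-domain binding partners 0 of 10 and oocyte transcription factors 0 of 12. A list of 12 skeletal muscle markers also gave 0, but shares 10 genes with the MyoD list. Below the 2-fold limit, 3 oocyte factors had an adjusted p under 0.05 by edgeR, *Sohlh1* at -0.78 on the log2 scale (0.000529), *Nobox* at -0.5 (0.00699) and *Lhx8*, and the median of that list was -0.27. In oocyte-like cells 4 of 14 muscle genes with at least 20 UMIs were at least 2-fold higher in irradiated wild type and none was lower (median ratio 1.1), where 9.1% of all genes were higher. They were *Casq2* (4.13, 2.41 to 7.26), *Des* (3.03, 1.25 to 7.62), *Mef2c* (2.47, 1.7 to 3.6) and *Mymx* (2.38, 0.917 to 6.25), on 10 to 64 UMIs per library. Cells outside oocytes held 3265 *Des* and 8930 *Mef2c* UMIs in non-irradiated wild type, against 91 of *Casq2* and 42 of *Mymx*. Of the mesoderm list 3 of 12 were higher, *Snai1*, *Snai2* and *Mef2c*, and of the Notch list 3 of 19, *Mfng* among them (6.77, 5.51 to 8.36). Outside oocytes *Snai1* had 1447 and *Snai2* 4042 UMIs in non-irradiated wild type. RNA of other cells as a source of these higher values was not tested. The inner ear list had 2 of 7 higher and 2 lower. The pituitary list had 1 of 5 higher and 2 lower, *Foxl2* and *Nr5a1*, which granulosa cells also express, and its sum was 126 CPM without and 43.1 with irradiation.

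Of 128 other lineage factors tested 5 rose and 1 fell. *Ascl2*, a bHLH factor of trophoblast and intestinal stem cells, rose from 0.732 ± 0.205 to 1.82 ± 0.389 CPM (log2 fold change 1.3, SE 0.19, adjusted p = 7.89e-05 by edgeR), and its effect differed between genotypes by 1.36 (interaction, adjusted p = 0.00725 by edgeR). *Bhlha15*, a factor of secretory cells, rose by 1.58 (SE 0.24, adjusted p = 0.000135), *Barx1*, a stomach and tooth homeodomain factor, by 1.20 (SE 0.20, adjusted p = 0.000427) and *Dlx4*, a homeodomain factor, by 3.39 (SE 0.78, adjusted p = 0.0131, all by edgeR). *Dlx4* had 0 or 1 count in each non-irradiated and 1 to 7 in each irradiated wild-type library. Its irradiated replicate 1 (0.0493 CPM) lay below its non-irradiated replicate 3 (0.0509). *En2*, a midbrain and cerebellar factor, fell by 1.53 on the log2 scale (SE 0.39, adjusted p = 0.0321 by edgeR), a call lost without non-irradiated replicate 5 or 6 or irradiated replicate 3, 5 or 6 of wild type (adjusted p up to 0.112), with the 12 wild-type libraries alone (0.0904) and with the replicate block (0.0545). *Runx3* rose by 1.69 (SE 0.41, adjusted p = 0.0212 by edgeR), with irradiated replicate 3 at 5.00 CPM and the other 5 libraries at 0.985 to 1.64. Without that library *Runx3* was at 1.14 (adjusted p = 0.104 by edgeR), without non-irradiated replicate 3 at 1.55 (0.0568) and without non-irradiated replicate 4 at 1.59 (0.0626). Without irradiated replicate 3 the number of listed genes called fell from 8 to 5. Over all lists but the p53 one 8 of 283 tested genes (2.83%) were called, against 1.08% of all genes, and none in *Chek2*-/-. The interaction passed for *Hmx1* and *Ascl2* among the 8. These were picked on the wild-type contrast, which is part of the interaction, so nothing is read from the 0.623% of all genes that passed. The lists were chosen with earlier results known.

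**Figure D5:**
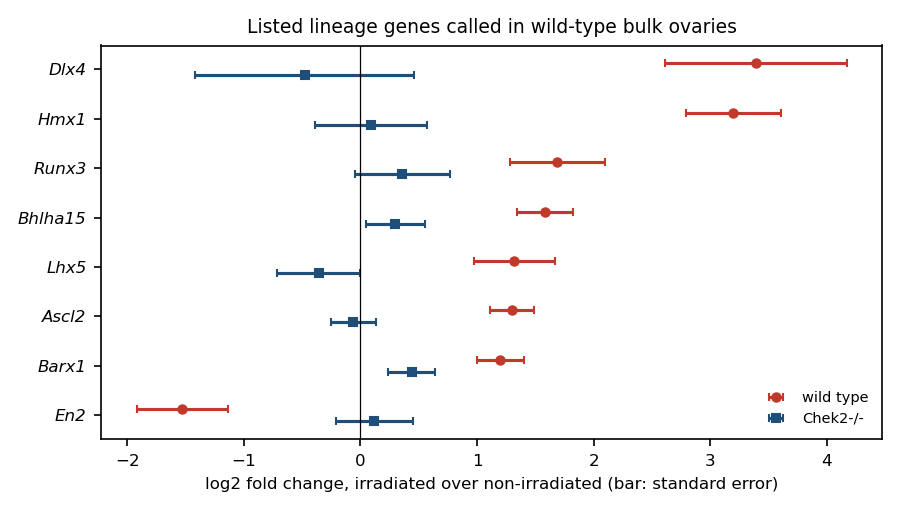
Rows are the 8 listed genes called in wild type, the x axis gives the log2 fold change of irradiated over non-irradiated bulk ovaries, and bars are standard errors. Wild-type values run from -1.53 for *En2* to 3.39 for *Dlx4*, and *Chek2*-/- values from -0.48 to 0.44.

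In oocyte-like cells all 8 called genes had UMIs. *Runx3* had 86 in irradiated and 2 in non-irradiated wild type, a ratio of 93 (25 to 780), *Bhlha15* 25 and 4 (13.5, 4.67 to 53.4), *Ascl2* 492 and 192 (5.54, 4.68 to 6.58) and *Barx1* 272 and 185 (3.18, 2.63 to 3.85). *Dlx4* had 19 and 0 and *Lhx5* 19 and 3 (13.7, 4.03 to 72.3). *En2*, the one that fell in bulk, had 3 and 17 (0.382, 0.0716 to 1.32). Among 63 of the other lineage factors with at least 20 UMIs 22 were at least 2-fold higher and 4 at least 2-fold lower, where 9.1% of all genes were higher. All genes were not matched to these factors in UMI number. The part of counting error, of depth and of RNA from other cells was not tested.

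Of 20 neighbouring genes 0 were called, which at 1.08% over all genes is near background. The 20 tested genes nearest to the 5, 2 on each side, included *Qsox2*, 348 bases from *Lhx3*, and *Bub3*, 2.21 kb from *Hmx2*. Over 24 libraries the genes most like *Lhx3* in log2 CPM were 4833428L15Rik (Pearson's r = 0.99), 9930012K11Rik (0.98) and *Slc6a3*, the dopamine transporter (0.98). For *Myod1* they were *Plch2* (0.93), *Col2a1* (0.91) and *Mdm2* (0.91), for *Hmx2* Gm43301, 9930012K11Rik and *Lhx3* (0.98 each), and for both *Mesp1* and *Hes2* 4833428L15Rik, *Ccdc17* and *Ankrd65* (0.96 to 0.97). These relations span the 4 groups and follow the irradiated wild-type group.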

How the data were processed

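The labels put 24 bulk and 4 single-cell ovary libraries, taken 6 h after 0.5 Gy IR or sham treatment, into 4 groups. For bulk libraries the authors trimmed reads, quantified Ensembl transcripts with Salmon 1.3.0, and deposited the gene sums as unscaled estimated counts. The labels name mm10. Single-cell reads went through Cell Ranger V4 (build mm10), and the deposited values are whole UMI counts by gene and barcode. Symbols came from GENCODE (44118 of 44674 identifiers) and the single-cell gene list (34), and 522 had none.

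Estimated counts were rounded, genes under 10 counts over all libraries were dropped, and 26790 genes were fitted with TMM and the edgeR 4.0.16 quasi-likelihood test (R 4.3.3), 1 coefficient per group, with Benjamini-Hochberg adjustment. Calls needed an adjusted p of at most 0.05 and 2-fold. The study's methods give 6 females per group and RNA from paired ovaries, so libraries were taken as separate females. Single cells under 1000 genes, over 20% mitochondrial or 50% ribosomal UMIs, and Scrublet doublets (4.02 to 5.47%) were removed, and 8697 to 9779 cells per library were clustered together (scanpy 1.11.5, Python 3.11.15, 30 components, resolution 0.5) without the 5 genes. No correction between libraries was made before clustering. Classes needed 60% of a marker list, at least 3 markers. Clusters 11 and 14 were left unnamed. Intervals are exact, at 95%.

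The fit was tested on simulated counts. Alternatives were DESeq2 1.42.0, limma-voom 3.58.1, other scalings and filters, the replicate block, left-out libraries, and other definitions and depths of oocyte-like cells. The 5 genes and all lists were chosen with earlier results of these data known. Named genes were the 5, some of the relatives with a count, up to 6 called genes per list, the 2 nearest genes on each side, the 3 most alike per gene, *Chek2*, *Mdm2* and *Cdkn1a*. No test across cells was made.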

Additional observations from a re-analysis of the deposited data

Results flagged for a closer look

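Of 69 groups of 6 libraries tested by Dixon's criterion, 12 had a highest library far from the others. The chance rate of about 1 in 20 holds for continuous values. A group with counts in 1 library alone is always flagged, so nothing is read from the number 12. In 4 of them the library held the only count: *Lhx3* in *Chek2*-/- replicates 4 (non-irradiated, 0.037 CPM) and 2 (irradiated, 0.0359 CPM), *Mesp1* in irradiated *Chek2*-/- replicate 1 (0.0354 CPM) and *Hmx2* in non-irradiated *Chek2*-/- replicate 3 (0.0383 CPM). *Hmx2* in irradiated *Chek2*-/- replicate 2 had 3 counts (0.108 CPM) and the other 5 libraries had none. *Myod1* stood apart in non-irradiated wild-type replicate 2 (0.285 CPM) and non-irradiated *Chek2*-/- replicate 4 (0.628 CPM). *Hmx2* in irradiated wild-type replicate 4 was at 1.4 CPM, next to 0.74. *Runx3* reached 5.00 CPM in irradiated wild-type replicate 3 and 2.08 in irradiated *Chek2*-/- replicate 2. *Barx1* was at 1.3 CPM in non-irradiated wild-type replicate 4 and *En2* at 0.957 in non-irradiated *Chek2*-/- replicate 3.

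The irradiation effect differed between genotypes, by the interaction in edgeR, for *Hmx1* by 3.11 on the log2 scale and for *Ascl2* by 1.36. Both had been picked on the wild-type contrast, which is part of this interaction. No such value is given for the 5 lineage genes, which were chosen on that contrast.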

How the results depend on the processing

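*Lhx3*, *Mesp1* and *Hmx2* had too few counts in *Chek2*-/- ovaries for a call. With the 12 *Chek2*-/- libraries alone these genes were not tested. No alternative called *Myod1* or *Hes2* in *Chek2*-/- ovaries. The log2 fold change of *Myod1* there went from -0.57 to 0 without non-irradiated replicate 4, and with 1 library left out it ran from -1.01 to 0. That of *Hes2* went from -0.54 to 0.07 without non-irradiated replicate 5, in a range of -1.12 to 0.07. The cause was not tested. The number of listed genes called was 8, and 5 to 10 with 1 library left out. Same-numbered libraries had deviations correlated at -0.05 to 0.4 in wild type, where 1 of 6 matched its own number best, and at 0.06 to 0.66 in *Chek2*-/-, where 4 of 6 did, a hint from the data. Not every pair exceeded 0.1, so the numbers were not taken as pairs. With the replicate block 8 listed genes were called, though *Lhx5* and *En2* were lost (adjusted p 0.067 and 0.0545 by edgeR). The interaction passed for 2 of the 8 genes, and for 2 or 3 under alternatives chosen after seeing the data. In single cells 5 genes were at least 10-fold higher in irradiated wild-type oocyte-like cells under each definition, but with cells thinned to 5000 UMIs the bound over 3 UMIs reached 10-fold for 1. Thinning moved the irradiated level in CPM from 27.4 to 37.6 for *Lhx3*, 26.3 to 17.8 for *Myod1*, 12.9 to 21.8 for *Mesp1* and 4.11 to 7.92 for *Hes2*, on 4 to 19 UMIs a gene. Counting every barcode with at least 3 oocyte marker UMIs gave 23.5 for *Lhx3* and 22.8 for *Myod1*. The setting without doublet removal added back called doublets with oocyte markers and did not recluster. Leaving out both oocyte-poor *Chek2*-/- libraries was chosen after seeing the data and gave 10 listed genes. Depth limits what is said of *Chek2*-/- ovaries, where 3 genes had at most 3 counts a group.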
